A study of Mus musculus with 6 samples.

Results

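Integrins are the receptors by which cells grip the matrix around them. The genes described here encode 10 of their chains, the alpha chains Itga2, Itga3, Itga5, Itga6 and Itgav and the beta chains Itgb1, Itgb4, Itgb5, Itgb6 and Itgb8. They were taken by symbol from a table of 24421 gene rows, and all 10 were found once. RNA was sequenced from 3 murine pancreatic ductal adenocarcinoma cell lines, 6499c4, 6419c5 and 2838c3, grown with serum. Each line was exposed for 16 hours to G-1 at 250 nM, a compound that activates the membrane oestrogen receptor GPER, or to its DMSO vehicle. There was 1 library per line and treatment, which makes 3 G-1 libraries, 3 vehicle libraries and 2 libraries per line. The labels give no genotype for any line, so all that is known of each model is its tumour type and name. The study asked how G-1 alters gene expression in these cells, and the lines also allow their integrin repertoires to be set side by side.

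An integrin at the cell surface is a pair of 1 alpha and 1 beta chain, and the pair decides what is bound. Itgb1 pairs with many alpha chains. With Itga2 it forms a collagen receptor, with Itga3 or Itga6 a laminin receptor, and with Itga5 the main fibronectin receptor. Itgb4 pairs with Itga6 alone, and that pair anchors hemidesmosomes, the junctions that fix epithelial cells to laminin. Itgav pairs with Itgb1, Itgb5, Itgb6 and Itgb8 in receptors that recognise the peptide arginine-glycine-aspartate (RGD) in vitronectin, fibronectin and the latent form of the growth factor TGF-beta. In the pancreas laminin receptors belong to the duct epithelium and its basement membrane, and ductal adenocarcinoma is a tumour rich in matrix.

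The libraries held 5455990 to 8645057 reads in genes under G-1 and 7213624 to 8890821 under vehicle. Of 8 epithelial and duct markers 7 averaged at least 1 FPKM (reads per kilobase of a gene's exons, on a scale common to the libraries), with a summed level of 3430 to 5846 FPKM under G-1 and 3419 to 5962 under vehicle. None of 7 fibroblast and none of 5 endothelial markers reached that level, and the fibroblast genes Dcn, Lum and Thy1 had no read in any library. The fibroblast sum was 0.037 to 1.85 FPKM under G-1 and 0.194 to 3.64 under vehicle, and the endothelial sum 0.121 to 1.13 and 0.0665 to 1.82 FPKM. Of 7 leukocyte markers only Cd68 averaged at least 1 FPKM (sum 2.03 to 3.35 FPKM under G-1 and 0.788 to 2.77 under vehicle), with the macrophage gene Adgre1 at 0. Of 3 platelet markers only Ppbp did (sum 0.218 to 0.841 and 1.14 to 3.42 FPKM), and of 4 acinar markers only Cela1 (sum 0.166 to 7.58 and 0.633 to 3.91 FPKM). Gper1, which encodes the receptor G-1 was made to act on, had 0 reads in all 6 libraries, which allows up to 0.337 to 0.55 RPM (reads relative to the library's total), depending on the library. In such bulk samples fewer cells with a transcript and less of it per cell cannot be told apart.

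Of the 10 chains, 8 had an entry in the RefSeq promoter table (GRCm38.p6), and Itgb1 and Itgav are printed because their levels differed most between the lines. Each window holds the 250 bases before the start. The Itgb1 window is chr8:128685404-128685653 and the Itgav window chr2:83724147-83724396, both on the plus strand. Capitals mark matches on either strand to the SP1 box, the TEAD core or the ETS core, and none of the matches shown overlaps another.
Itgb1: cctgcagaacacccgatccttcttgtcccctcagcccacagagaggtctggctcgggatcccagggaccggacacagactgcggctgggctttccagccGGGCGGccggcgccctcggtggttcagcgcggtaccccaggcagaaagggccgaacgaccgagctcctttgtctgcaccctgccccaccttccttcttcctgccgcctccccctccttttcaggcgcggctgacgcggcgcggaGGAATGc
Itgav: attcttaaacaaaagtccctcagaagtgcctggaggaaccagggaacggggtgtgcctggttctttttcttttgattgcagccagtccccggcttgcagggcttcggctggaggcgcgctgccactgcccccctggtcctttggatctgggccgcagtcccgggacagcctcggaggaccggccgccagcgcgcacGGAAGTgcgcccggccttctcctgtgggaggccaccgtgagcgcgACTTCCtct
Both windows are rich in CpG, with 21 CpG in Itgb1 and 18 in Itgav, against a median of 6 over all promoters of the table. The SP1 box, spelled GGGCGG, stood in 4 of the 8 promoters and in 32.7% of 32851 promoters of the same length. The TEAD core, spelled GGAATG, stood in 1 of 8, that of Itgb1, and in 12.6% of all promoters. The ETS core, spelled GGAAGT, stood in 1 of 8, that of Itgav, and in 19.7% of all promoters. Of the other motifs searched on both strands, the AP-1 site, spelled TGANTCA, stood in 0 of 8 and in 6.75% of all promoters. The E-box CACGTG stood in 0 of 8, against 6.02% of all promoters, and the TATA box, spelled TATAAA, in 0 of 8, against 12.4%.

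Itgb1, the common beta chain, was the most abundant integrin transcript in all 6 libraries. In 6499c4 it stood at 175 FPKM under G-1 and 187 under vehicle, in 6419c5 at 358 under G-1 and 368 under vehicle, and in 2838c3 at 389.7 under G-1 and 426 under vehicle. Both 6499c4 libraries lay below the other 4. Its mean level over the 6 libraries exceeded that of 98.4% of the 10748 genes tested, which averaged 1 FPKM or more.

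The laminin-binding alpha chains came next. Itga3 stood at 144 FPKM under G-1 and 175 under vehicle in 6499c4, at 141 and 167 FPKM under G-1 and vehicle in 6419c5, and at 159.6 and 170.0 FPKM under G-1 and vehicle in 2838c3. Its highest library was only 1.24 times its lowest, the narrowest spread of the 9 chains that averaged at least 1 FPKM. Itga6 stood at 42.4 FPKM under G-1 and 47.5 under vehicle in 6499c4, at 71.7 under G-1 and 70.9 under vehicle in 6419c5, and at 59.6 under G-1 and 69.2 under vehicle in 2838c3. The lines did not overlap in Itga6. Itgb4, the hemidesmosomal partner of Itga6, stood at 12.1 FPKM under G-1 and 11.3 under vehicle in 6499c4, at 25.7 under G-1 and 26.1 under vehicle in 6419c5, and at 16.7 under G-1 and 17.1 under vehicle in 2838c3. Its lines did not overlap either, with 6419c5 highest.

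Itga2, the collagen-binding chain, stood at 20.0 FPKM under G-1 and 28.3 under vehicle in 6499c4, at 35.6 under G-1 and 42.3 under vehicle in 6419c5, and at 38.2 under G-1 and 43.7 under vehicle in 2838c3. Both 6499c4 libraries were lowest, and within each line the G-1 library was the lower. The G-1 and vehicle libraries overlap once the lines are pooled.

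Among the RGD-binding chains Itgav stood at 21.6 FPKM under G-1 and 24.2 under vehicle in 6499c4, at 57.6 under G-1 and 61.9 under vehicle in 6419c5, and at 40.6 under G-1 and 45.7 under vehicle in 2838c3. Its highest library was 2.87 times its lowest, the widest spread of the 9. Itgb5, which with Itgav binds vitronectin, stood at 34.7 FPKM under G-1 and 31.4 under vehicle in 6499c4, at 47.5 under G-1 and 53.5 under vehicle in 6419c5, and at 51.1 under G-1 and 51.5 under vehicle in 2838c3. Only 6499c4 stood apart from the other lines in Itgb5.

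Itga5, the fibronectin receptor's alpha chain, ranged from 13.3 to 14.2 FPKM under G-1 and from 12.3 to 17.9 under vehicle. Itgb6, an epithelial chain that with Itgav activates latent TGF-beta, ranged from 7.47 to 9.54 FPKM under G-1 and from 9.34 to 10.5 under vehicle. Both 6499c4 libraries were lowest in Itga5, by a small margin. In Itgb6, 6499c4 overlapped both other lines, while both 6419c5 libraries lay below both 2838c3 libraries. Itgb8, the other TGF-beta-activating partner of Itgav, had 0 reads in 4 libraries, 1 read in 6419c5 under G-1 and 3 reads in 6499c4 under vehicle. It is at the limit of detection, failed the filter of a mean of 1 FPKM and was not tested. The remaining 9 chains passed and rested on 231 to 15275 reads per library.

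**Figure D1:**
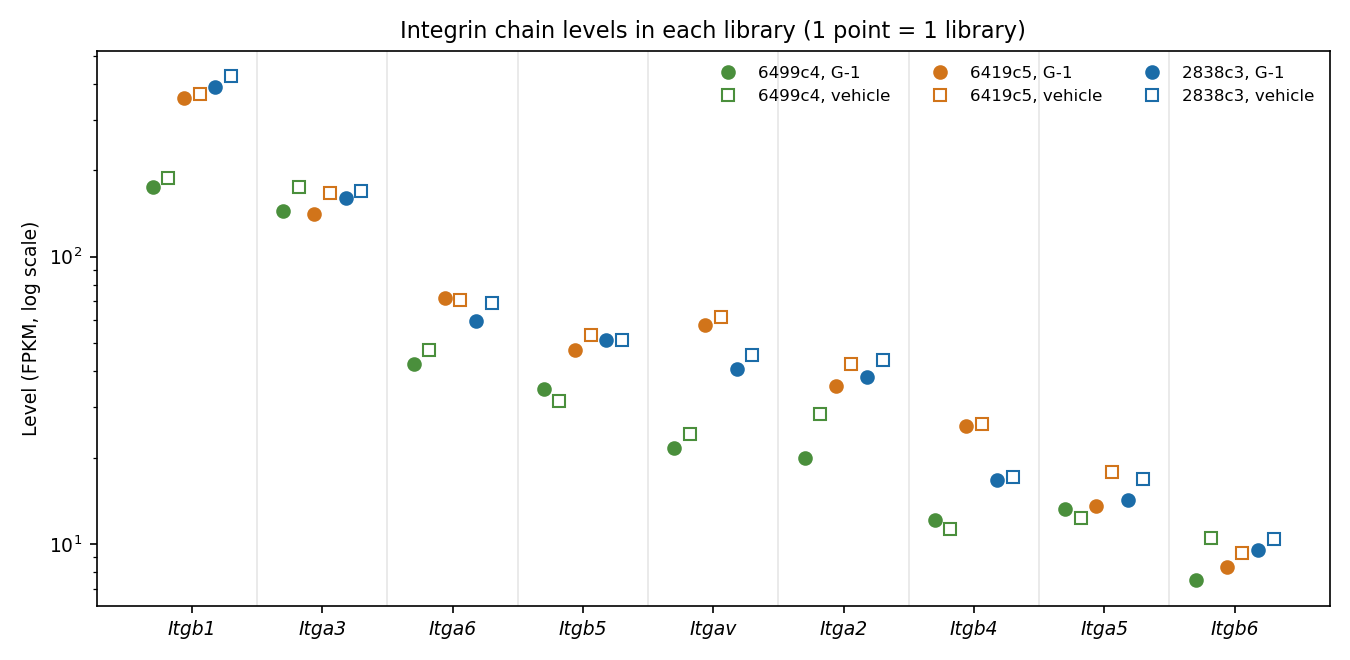
Level of the 9 integrin chains that averaged at least 1 FPKM in each library, in FPKM on a log axis, with lines by colour and G-1 as filled circles and vehicle as open squares. Itgb1 is highest in every library, Itga3 spans only 1.24 times from lowest to highest, and Itgb8, which averaged under 1 FPKM, is not drawn.

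Ordered by mean FPKM over the 6 libraries, Itgb1 came first, then Itga3, Itga6, Itgb5, Itgav, Itga2, Itgb4, Itga5, Itgb6 and Itgb8. Some neighbours in this order did not keep it in every library. Itgb5 was above Itgav in 4 of 6 libraries, Itgav above Itga2 in 5 of 6, and Itgb4 above Itga5 in 4 of 6. The other neighbours kept their order in 6 of 6.

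As a share of the summed FPKM of the 5 beta chains, Itgb1 made up 76.3% and 77.8% in 6499c4 under G-1 and vehicle, 81.4% and 80.5% in 6419c5 under G-1 and vehicle, and 83.4% and 84.4% in 2838c3 under G-1 and vehicle. As a share of the 5 alpha chains, Itga3 made up 59.7% and 60.9% in 6499c4 under G-1 and vehicle, against 44.1% to 51.1% in the other 4 libraries. Itgav made up 8.93% and 8.44% of the alpha sum in 6499c4 under G-1 and vehicle, 18.0% and 17.2% in 6419c5 under G-1 and vehicle, and 13.0% and 13.2% in 2838c3 under G-1 and vehicle. The repertoire of 6499c4 was thus more weighted to Itga3 at the RNA level than that of the other lines.

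**Figure D2:**
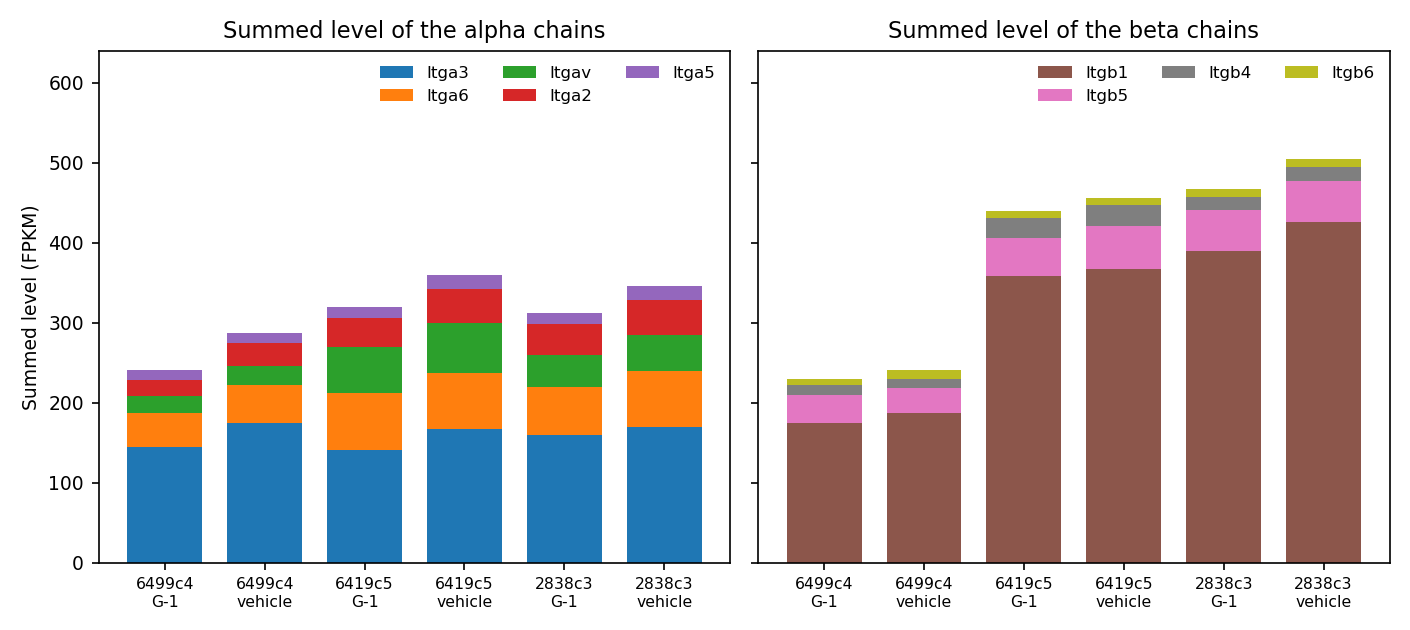
Stacked levels in FPKM of the alpha chains and of the beta chains in the 6 libraries, with 1 bar per library and Itgb8, at or near 0, not drawn. Itgb1 fills 76.3% to 84.4% of each beta bar and Itga3 44.1% to 60.9% of each alpha bar, and the beta bars of 6499c4 (229 FPKM under G-1 and 241 under vehicle) are the lowest.

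Ratios of transcript levels between chains known to pair were then taken within each library. They describe RNA only, since protein pairs were not measured. Itgb1 stood at 0.725 and 0.652 times the summed FPKM of the 5 alpha chains in 6499c4 under G-1 and vehicle, and at 1.02 to 1.25 times that sum in the other 4 libraries. So the summed FPKM of these 5 alpha chains exceeded Itgb1 in 6499c4 and not in the other lines. The lowest ratio of the other lines, 1.02 in 6419c5 under vehicle, rests on these 5 alone, without Itga1 or Itga7. There Itgb1 stood at 367.6 FPKM and the 5 summed to 359.7, with Itga1 at 9.43 and Itga7 at 3.38 FPKM besides. With Itga1 and Itga7 added, the alpha sum exceeds Itgb1 in that library as well. Itgb4 stood at 0.238 to 0.368 times Itga6 over the 6 libraries, with 6419c5 highest at 0.359 under G-1 and 0.368 under vehicle.

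For Itgav the balance of partners differed by line. Itgb5 stood at 1.61 and 1.30 times Itgav in 6499c4 under G-1 and vehicle, at 0.824 and 0.864 times in 6419c5 under G-1 and vehicle, and at 1.26 and 1.13 times in 2838c3 under G-1 and vehicle. Itgb6 stood at 0.346 and 0.434 times Itgav in 6499c4 under G-1 and vehicle, against 0.144 to 0.235 times in the other 4 libraries. These ratios are descriptions of single libraries and were not tested.

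Line 6499c4 carried less integrin RNA than either other line. Against 6419c5, 6 of the 9 chains tested were lower in 6499c4 and 0 higher. Against 2838c3 the same 6, Itga2, Itga6, Itgav, Itgb1, Itgb4 and Itgb5, were lower and 0 higher. These calls come from limma on log2(FPKM + 1), with lines and treatment as terms and an adjusted p under 0.05 after Benjamini-Hochberg adjustment over 10748 genes. The lines differed widely: 45.0% of all genes were called between 6499c4 and 6419c5 (23.7% lower in 6499c4), and 55.6% between 6499c4 and 2838c3 (28.9% lower). The median difference of the 9 chains was -0.66 against 6419c5 and -0.51 against 2838c3, where the medians over all genes tested were 0.006 and -0.005. The 2 libraries of a line differ in treatment and no line was sampled again, so these p-values measure only the spread between these libraries.

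Itgb1 averaged 181 FPKM in 6499c4, against 363 FPKM in 6419c5 and 408 FPKM in 2838c3. The difference was -0.998 ± 0.07 (SE) from 6419c5 (adjusted p = 4.1e-05) and -1.17 ± 0.07 from 2838c3 (adjusted p = 1.31e-05, limma). Itgav averaged 22.9 FPKM in 6499c4, 59.8 in 6419c5 and 43.2 in 2838c3. It was lower in 6499c4 by a difference of -1.35 ± 0.07 from 6419c5 (adjusted p = 1.83e-05) and of -0.89 ± 0.07 from 2838c3 (adjusted p = 7.53e-05, limma). Both chains separate 6499c4 from the rest by more than their spread within lines.

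Itgb4 averaged 11.7 FPKM in 6499c4, 25.9 in 6419c5 and 16.9 in 2838c3. The difference was -1.08 ± 0.09 (SE) from 6419c5 (adjusted p = 0.000121) and -0.49 ± 0.09 from 2838c3 (adjusted p = 0.00297, limma). Its partner Itga6 was lower in 6499c4 by differences of -0.66 and -0.51, Itga2 by -0.69 and -0.76, and Itgb5 by -0.60 and -0.62, each from 6419c5 and from 2838c3, with SE of 0.08 to 0.10 and adjusted p of 0.00183 or less (limma). At a threshold of at least 1 on the log2 scale as well, Itgav and Itgb4 were called lower in 6499c4 than in 6419c5 (5.76% of all genes) and Itgb1 lower than in 2838c3 (5.95% of all genes).

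Between 6419c5 and 2838c3, 2 of the 9 chains passed, both higher in 6419c5, where 51.5% of all genes were called and 26.2% were higher. Itgav averaged 59.8 FPKM in 6419c5 and 43.2 in 2838c3, a difference of 0.46 ± 0.07 (SE, adjusted p = 0.0019). Itgb4 averaged 25.9 FPKM in 6419c5 and 16.9 in 2838c3, a difference of 0.59 ± 0.09 (SE, adjusted p = 0.00159, limma). The median of the 9 was -0.02. Limma-voom with a correction for gene length and GC content called 5 of the 9, and 60.2% of the 10199 genes in that test. Itgb1 averaged 363 FPKM in 6419c5 and 408 in 2838c3 and did not pass (difference -0.17 ± 0.07, adjusted p = 0.0702, limma). It was called lower in 6419c5 in 4 of 16 alternatives. These were limma-voom on reads (adjusted p = 0.0141), limma with quantile scaling (0.015), and the length and GC correction in limma (0.018) and limma-voom (0.000204).

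Itga3, Itga5 and Itgb6 passed in none of the 3 line comparisons. For Itga3 the 95% interval of the difference ran from -0.12 to 0.22 for 6499c4 against 6419c5, from -0.23 to 0.12 for 6499c4 against 2838c3 and from -0.28 to 0.07 for 6419c5 against 2838c3. Itga5 depended on the library and test: without the G-1 library of 6499c4 it was lower in 6499c4 than in 2838c3 by a difference of -0.46 (adjusted p = 0.0339) and than in 6419c5 by one of -0.47 (adjusted p = 0.0412), and limma-voom called it lower in 6499c4 in both comparisons (adjusted p = 0.021 and 0.0185). Itgb6 averaged 8.99 FPKM in 6499c4, 8.82 in 6419c5 and 9.97 in 2838c3. The intervals for Itgb6 spanned -0.28 to 0.30, -0.44 to 0.14 and -0.45 to 0.13 in the same order of comparisons, so differences of that size remain possible. Limma-voom with the length and GC correction called Itgb6 lower in 6419c5 than in 2838c3 (difference -0.28, adjusted p = 0.04).

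**Figure D3:**
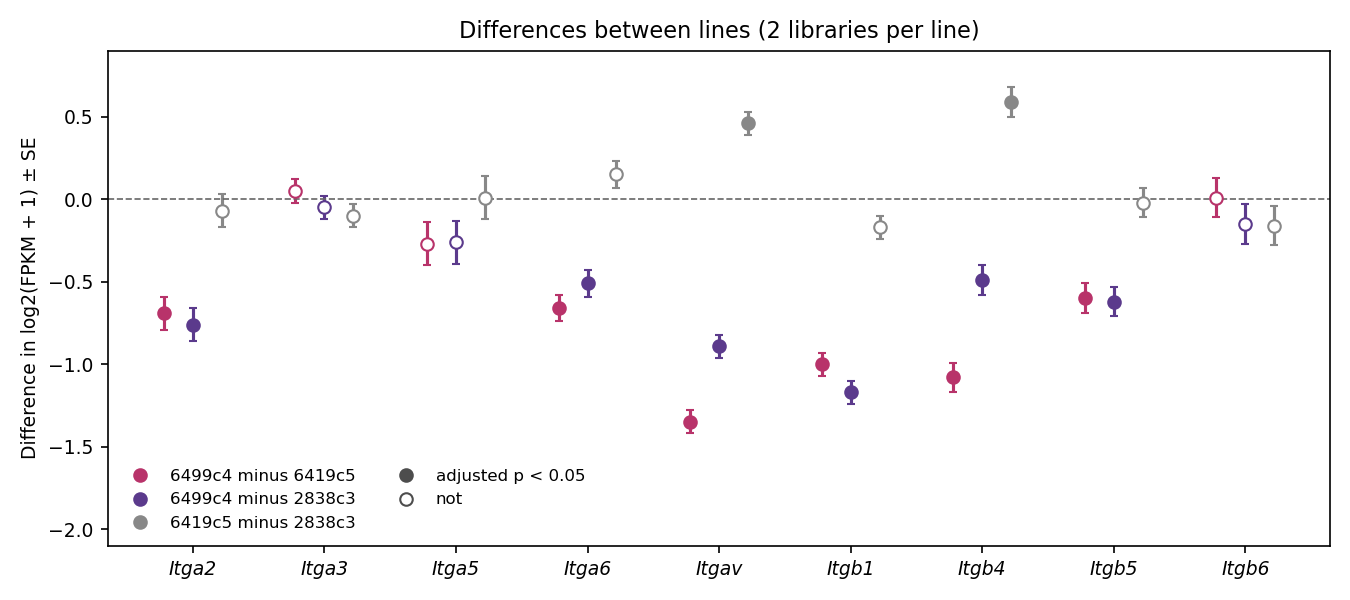
Difference in log2(FPKM + 1) between lines for the 9 chains tested, with its SE, filled where the adjusted p is under 0.05. For each chain 6499c4 minus 6419c5 stands left, then 6499c4 minus 2838c3, then 6419c5 minus 2838c3. Itga2, Itga6, Itgav, Itgb1, Itgb4 and Itgb5 are filled and below 0 in both comparisons of 6499c4.

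Under G-1 no integrin chain passed the test across genes. In the limma test, 0 of the 9 chains had an adjusted p under 0.05, and 3 of 10748 genes did (0.0279%). At an unadjusted p under 0.05 there were 2 of 9, Itga2 and Itga3, against 10.1% of all genes. Limma-voom on the reads called both lower (1.59% of 10573 genes called, 0.52% lower), and with a correction for gene length and GC content it called 0 of 9 (0.314% of 10199 genes called, 0.127% lower). The estimates leaned one way, with 8 of 9 negative and a median of -0.14, where the median of all genes was -0.006.

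Itga2 read counts under G-1 were 0.705 times vehicle in 6499c4, 0.841 times in 6419c5 and 0.873 times in 2838c3, on the deposited library scale. The exact 95% intervals, which cover counting error only, were 0.640 to 0.777, 0.770 to 0.919 and 0.812 to 0.939. Every line lay below 1, with 6499c4 lowest. Itga2 averaged 31.3 ± 9.9 FPKM under G-1 and 38.1 ± 8.5 under vehicle (SD, n = 3 each). The mean difference was -0.31 ± 0.08 (SE, 95% interval -0.49 to -0.12), with an adjusted p of 0.34 in limma and 0.0207 in limma-voom, and 0.161 in limma-voom with the length and GC correction.

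Itga3 read counts under G-1 were 0.825 times vehicle in 6499c4, 0.846 times in 6419c5 and 0.939 times in 2838c3. It averaged 148 ± 10 FPKM under G-1 and 170.5 ± 4.1 under vehicle (SD, n = 3 each), and its 3 G-1 libraries lay below its 3 vehicle libraries with no overlap. The difference was -0.20 ± 0.06 (SE, 95% interval -0.34 to -0.06), with an adjusted p of 0.372 in limma, 0.0438 in limma-voom and 0.0731 in limma-voom with the correction. Itgav read counts under G-1 were 0.890 times vehicle in 6499c4, 0.931 times in 6419c5 and 0.890 times in 2838c3. Its difference was -0.14 ± 0.06 (SE, adjusted p = 0.50 in limma).

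By sign, 5 of 9 chains were lower under G-1 in all 3 lines (Itga2, Itga3, Itgav, Itgb1 and Itgb6), against 17.5% of all genes. The counting interval lay below 1 in all 3 lines for Itga2, Itga3 and Itgav, 3 of 9, against 1.47% of all genes, and above 1 in all 3 lines for 0 of 9, against 1.14%. Line by line it lay below 1 for 6 chains in 6499c4 (17.7% of all genes), 5 in 6419c5 (8.76%) and 6 in 2838c3 (18.2%). It lay above 1 for Itgb5 in 6499c4 (17.9% of all genes) and for 0 chains in 6419c5 (7.77%) and 2838c3 (12.6%). A counting interval narrows as reads rise, and the shares over all genes are not matched for reads. The mean level of Itga2 exceeded that of 75.9% of the genes tested, that of Itga3 96.0% and that of Itgav 80.3%. With 3 lines the exact two-sided sign-flip permutation test cannot go below 0.25, and the 5 chains lower by sign in all 3 lines reached that value.

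**Figure D4:**
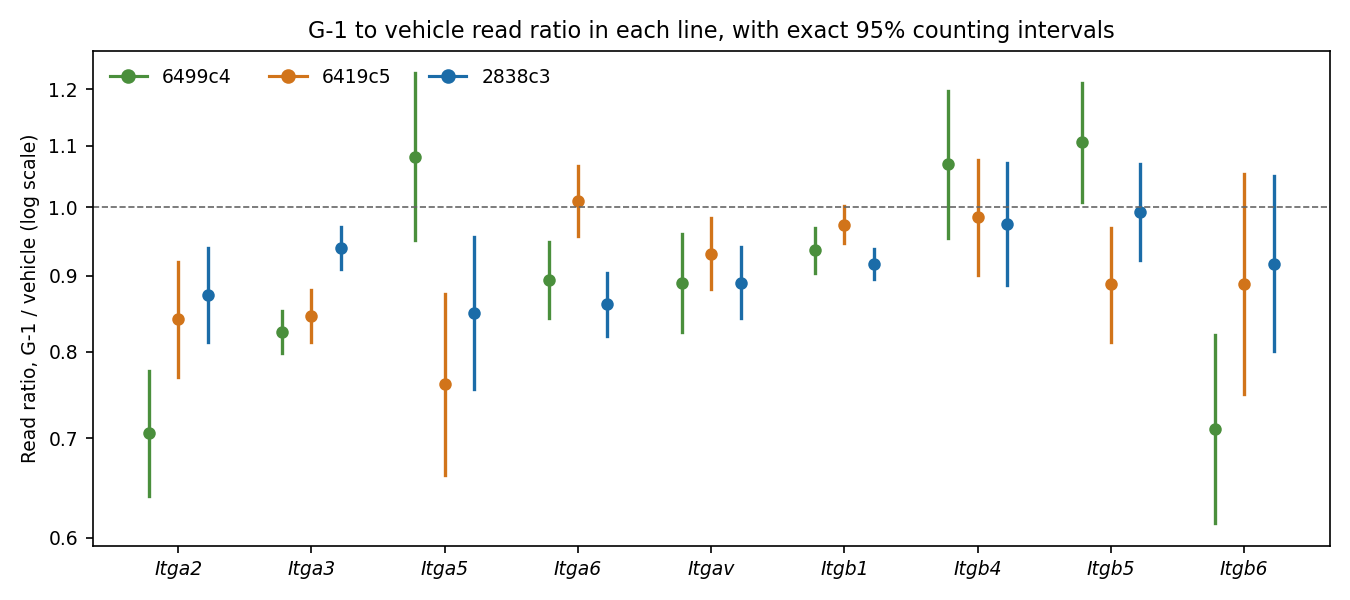
Reads under G-1 over reads under vehicle for the 9 chains in each line, on the deposited library scale, with exact 95% counting intervals. Itga2, Itga3 and Itgav lie below 1 in all 3 lines, and Itgb5 lies on both sides of it.

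Of the other chains, Itgb6 had the largest difference and was lower in all 3 lines. Its read counts under G-1 were 0.710 times vehicle in 6499c4, 0.889 times in 6419c5 and 0.917 times in 2838c3, and only the first interval excluded 1 (difference -0.24 ± 0.10, SE, adjusted p = 0.50 in limma). Itgb1 had a difference of -0.09 ± 0.05 (SE, adjusted p = 0.619), Itga6 of -0.12 ± 0.07 (adjusted p = 0.581) and Itga5 of -0.16 ± 0.11 (adjusted p = 0.626, all limma). Itgb4 had a difference of 0.01 ± 0.07 (SE, 95% interval -0.16 to 0.19) and Itgb5 one of -0.01 ± 0.08 (SE, 95% interval -0.19 to 0.16).

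The G-1 difference varied with gene length, to an extent that depended on the line. The 9 chains have exon lengths of 3.32 to 7.14 kb as implied by the table, and the 3733 genes in that range had a median G-1 difference of -0.04, against 0.11 for the 872 genes under 1 kb. By line these medians were -0.05 and 0.20 in 6499c4, -0.02 and 0.01 in 6419c5, and -0.05 and 0.06 in 2838c3. After correction for length and GC content the median of the 9 chains was -0.07, where it was -0.14 without. Itga2 then had a difference of -0.25 and Itga3 one of -0.21 (adjusted p = 0.462 and 0.443, limma).

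Beyond the 10, the mouse family holds 17 other integrin chains on the table, of which 3 averaged at least 1 FPKM. The leukocyte chains Itgal, Itgam, Itgax and Itgb2 had at most 2 reads in any library. In all, 4 of the 17 had no read in any library and 6 had 1 to 10 reads. Of the 4 others below 1 FPKM, Itga4 had 60 reads under G-1 and 107 under vehicle in 6419c5, and at most 1 read in each library of the other lines. Itga2b, Itga10 and Itgb7 had 32, 68 and 69 reads over the 6 libraries.

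Itga7, a laminin-binding chain best known from muscle, had 0 reads under G-1 and 5 under vehicle in 6499c4, 85 and 97 reads under G-1 and vehicle in 6419c5, and 171 and 136 reads under G-1 and vehicle in 2838c3. It was lower in 6499c4 than in 6419c5 by a difference of -2.12 ± 0.18 (adjusted p = 0.000125) and than in 2838c3 by one of -2.35 ± 0.18 (SE, adjusted p = 4.98e-05, limma). Itga1, another collagen-binding chain, stood at 3.36 FPKM under G-1 and 4.24 under vehicle in 6499c4, and at 9.43 to 10.5 FPKM in the other 4 libraries. It too was lower in 6499c4, by differences of -1.15 ± 0.13 (adjusted p = 0.000371) and -1.20 ± 0.13 (SE, adjusted p = 0.000214, limma) from 6419c5 and 2838c3. Itga7 passed the filter of a mean of 1 FPKM only through 6419c5 and 2838c3, so its call was not independent of that filter. Itga1 was above 1 FPKM in every library, so a collagen-binding chain outside the 10 was also lower in 6499c4. The laminin-binding chain Itga3 was not called in 6499c4 (differences 0.05 from 6419c5 and -0.05 from 2838c3).

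Itgb3, the partner of Itgav in the classical vitronectin receptor, went another way. It stood at 6.28 FPKM under G-1 and 4.195 under vehicle in 6499c4, at 7.72 under G-1 and 7.24 under vehicle in 6419c5, and at 2.58 under G-1 and 2.31 under vehicle in 2838c3. It was higher than in 2838c3 in both 6499c4 (0.84 ± 0.15, adjusted p = 0.00273) and 6419c5 (1.30 ± 0.15, SE, adjusted p = 0.00043, limma). It was lower in 6499c4 than in 6419c5 by a difference of -0.46 ± 0.15 (SE, adjusted p = 0.0419, limma), a call lost without either library of 6419c5 (adjusted p = 0.253 without vehicle and 0.112 without G-1) or without the vehicle library of 6499c4 (adjusted p = 0.279). That call was also lost with a pseudocount of 0.1 (adjusted p = 0.0512), no level filter (0.0997), no treatment term (0.0682), read totals as the scale (0.0804) and the length and GC correction in limma (0.0928). Under G-1 none of the 3 passed, none had an unadjusted p under 0.05, limma-voom called 0, and the differences were -0.12 for Itga1, 0.08 for Itga7 and 0.23 for Itgb3.

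**Figure D5:**
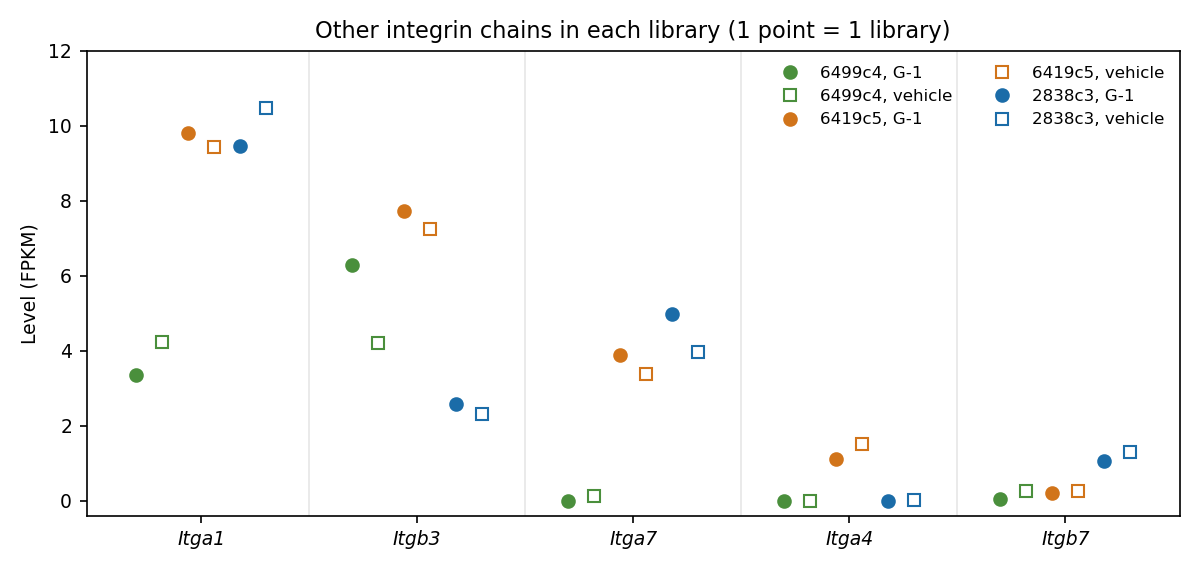
Levels in FPKM of the 5 other integrin chains with the highest means, by line, with G-1 as filled circles and vehicle as open squares. Itga7 lies at or near 0 in 6499c4, Itga1 is lowest there, Itgb3 is lowest in 2838c3, and Itga4 and Itgb7, which averaged under 1 FPKM, are highest in 6419c5 and in 2838c3.

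Genes for matrix ligands of these receptors were compared between the lines as well. Of 11 laminin and collagen genes tested, 7 were lower and 1 higher in 6499c4 than in 6419c5, and of 15 genes for RGD and other matrix ligands 11 were lower and 1 higher, where 23.7% of all genes were lower and 21.3% higher. Against 2838c3 the counts were 8 lower and 1 higher of 11, and 9 lower and 1 higher of 15, where 28.9% of all genes were lower and 26.6% higher. Lamb3, a chain of laminin-332, the ligand of hemidesmosomes, stood at 17.04 FPKM under G-1 and 18.4 under vehicle in 6499c4, against 63.0 under G-1 and 72.7 under vehicle in 6419c5 (difference -1.88 ± 0.09, SE, adjusted p = 1.12e-05, limma). Thbs1, the matrix protein thrombospondin-1, stood at 6.34 FPKM under G-1 and 7.94 under vehicle in 6499c4, against 142 under G-1 and 177 under vehicle in 6419c5 (difference -4.30 ± 0.08, SE, adjusted p = 1.39e-07, limma). The matricellular protein Cyr61 had a difference of -3.12 and the basement membrane protein Nid1 one of -1.81, both called lower in 6499c4, while the laminin chain Lamb1 was higher by 0.60 (adjusted p = 0.00107, limma).

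All 5 hemidesmosome genes tested were lower in 6499c4 than in 6419c5, and 4 were lower and 1 higher than in 2838c3. Of all genes, 23.7% were lower than in 6419c5, and 28.9% were lower and 26.6% higher than in 2838c3. Cd151, a tetraspanin that binds laminin receptors, had a difference of -0.76 from 6419c5 (adjusted p = 0.00061) and of -0.60 from 2838c3 (adjusted p = 0.0013, limma). Dst, which encodes a linker to keratin filaments, had one of -0.46 from 6419c5 (adjusted p = 0.0248, limma), a call lost without the G-1 library of 6419c5 (adjusted p = 0.218) or without either library of 6499c4 (adjusted p = 0.143 without G-1 and 0.0578 without vehicle). The Dst call was also lost with no level filter (adjusted p = 0.063), with read totals as the scale (0.0522) and with the length and GC correction, where the difference was -0.25 in limma (adjusted p = 0.108) and -0.16 in limma-voom (adjusted p = 0.078). Together with Itga6 and Itgb4, these 5 genes were lower in 6499c4 than in 6419c5.

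The 33 adaptors and kinases tested activate, restrain or act downstream of integrins. Of these, 18 were lower and 4 higher in 6499c4 than in 6419c5, and 16 were lower and 6 higher than in 2838c3. Over all genes 23.7% were lower and 21.3% higher in 6499c4 than in 6419c5, and 28.9% lower and 26.6% higher than in 2838c3. Vcl, which encodes vinculin, was lower than in 2838c3 by a difference of -1.70 (adjusted p = 3.42e-06), and Fermt2, the integrin activator kindlin-2, lower than in 6419c5 by one of -1.28 (adjusted p = 6.9e-05, limma). Tns4, a tensin that binds integrin beta tails, ran against them. It stood at 79.6 FPKM under G-1 and 88.0 under vehicle in 6499c4, against 15.4 under G-1 and 15.2 under vehicle in 6419c5 and 3.18 under G-1 and 3.34 under vehicle in 2838c3 (differences 2.38 and 4.31, adjusted p = 3.8e-06 and 1.95e-07, limma). Tns2 ran the other way, lower in 6499c4 by a difference of -2.39 from 6419c5 and of -2.08 from 2838c3.

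Of 20 membrane partners and trafficking genes, 12 were lower and 3 higher in 6499c4 than in 6419c5, where 23.7% of all genes were lower and 21.3% higher. The same counts held against 2838c3, where 28.9% of all genes were lower and 26.6% higher. Dab2, an adaptor for integrin endocytosis, was listed at 0 FPKM in both 6499c4 libraries. It stood at 56.1 FPKM under G-1 and 56.5 under vehicle in 6419c5, and at 9.83 under G-1 and 12.9 under vehicle in 2838c3. So Dab2 passed the level filter only through 6419c5 and 2838c3, and the counts of genes lower in 6499c4 include such genes. Col6a1, on the laminin and collagen list, is another (0.0314 FPKM under G-1 and 0.0549 under vehicle in 6499c4). Sdc4, the fibronectin co-receptor syndecan-4, was lower in 6499c4 than in 6419c5 by a difference of -1.54, and Bsg, which encodes basigin, higher than in 2838c3 by one of 1.14 (adjusted p = 9.63e-06 and 3.58e-05, limma). Between 6419c5 and 2838c3 the counts were 2 higher and 7 lower of 11 laminin and collagen genes, 8 higher and 4 lower of 15 RGD and other ligands, 12 higher and 9 lower of 33 adaptors, 1 higher and 2 lower of 5 hemidesmosome genes and 9 higher and 4 lower of 20 membrane partners. There 26.2% of all genes were higher and 25.3% lower.

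Under G-1, 0 genes of any of these lists passed the limma test. At an unadjusted p under 0.05 there were 7 of 15 RGD and other ligands, 5 of 33 adaptors, 2 of 20 membrane partners, 1 of 11 laminin and collagen genes and 0 of 5 hemidesmosome genes, against 10.1% of all genes. Of the 15 ligands, 8 were lower in all 3 lines and 0 higher, where 17.5% of all genes were lower and 15.4% higher. Limma-voom called 4 of them lower, Fn1 (fibronectin, -0.29), Thbs1 (-0.35), Ctgf (-0.30) and Nid1 (-0.24), besides the adaptor Actn1 (-0.21) and the caveolar protein Cav1 (-0.25). With the length and GC correction the limma-voom adjusted p was 0.0252 for Thbs1, 0.0507 for Fn1, 0.214 for Nid1, 0.104 for Actn1 and 0.138 for Cav1, and Ctgf had no length and GC value. Fn1, Nid1 and Actn1 were singled out after their values were seen.

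The genes most like the 3 most variable chains were looked up among 8005 genes, by the root-mean-square difference of centred log2(FPKM + 1) over the 6 libraries. For Itgav they were Clic4 (0.044), Anxa1 (0.046) and Amotl2 (0.063). For Itgb1 they were Dusp10 (0.070), Lrrc8c (0.071) and Cpe (0.072), and for Itgb4 Ufd1l (0.033), Tprgl (0.040) and Cyb5a (0.054). The 6 libraries come from 3 lines, and the likeness is a description. Clic4 stood at 52.4 FPKM under G-1 and 59.2 under vehicle in 6499c4, at 151 under G-1 and 157 under vehicle in 6419c5, and at 103 under G-1 and 113 under vehicle in 2838c3, the order seen in Itgav.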

How the data were processed

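Library preparation used an NEBNext Ultra kit on column-purified RNA, per the labels' protocols, and all 6 libraries were analysed. The authors deposited 1 table of FPKM values. Per the submitters' processing notes the tools were STAR and DESeq2, whose roles are not described. The build, annotation, strand setting and counting rule are unknown (not given in the sources used here). For each gene the FPKM move in equal steps, so whole reads were recovered for 15712 of 15712 genes above 0 (within 0.01 reads). The library scale matched median-of-ratios size factors (largest deviation 3.69e-12), while read totals deviated by up to 10.2%.

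The 10748 genes that averaged 1 FPKM or more were tested as log2(FPKM + 1) in limma 3.58.1 (R 4.3.3) with line and treatment as terms, a variance trend and Benjamini-Hochberg adjustment. The pseudocount of 1 FPKM added before the log understates changes of low genes. The line pairs a G-1 and a vehicle library, since both come from the same cell line. The deviations of a line's 2 libraries from their group means correlated at 0.906 in 2838c3, 0.871 in 6419c5 and 0.882 in 6499c4, so line was the replicate block. A G-1 p-value rests on the spread between 3 lines, with 2 residual degrees of freedom and a prior of 5.35.

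Limma-voom on recovered reads used 10573 genes with a mean of at least 10 reads. The length and GC correction, chosen after seeing the data, took GC from GENCODE M21 transcripts and covered 96.5% of genes. The limma and limma-voom fits and the read recovery were tested on simulated data. The length and GC correction, the read ratios and the promoter search were not. Read ratios have exact Clopper-Pearson 95% intervals for counting error only, and a count of 0 allows up to 3 reads.

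The chains and gene lists were chosen with earlier results of these data known. All 10 chains, and other integrin chains above 1 FPKM, are named. Of each other list up to 4 called genes per comparison with the largest difference could be named. Some genes of the lists are not reported by name here. Alternatives were other pseudocounts, filters, scalings and variance models, limma-voom, and leaving out each line or library.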

Additional observations from a re-analysis of the deposited data

Results flagged for a closer look

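Itgb5 moved in opposite directions under G-1 in lines 6499c4 and 6419c5. Reads under G-1 were 1.11 times vehicle in 6499c4 (exact 95% interval 1.01 to 1.21) and 0.888 times vehicle in 6419c5 (0.813 to 0.969), and 0.993 times in 2838c3. Each interval covers counting error of 1 library per line and treatment, and the difference between the lines was not tested.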

How the results depend on the processing

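Under G-1, limma-voom called 2 chains where the limma test on FPKM called 0, and between 6419c5 and 2838c3 limma-voom with the length and GC correction called 5 where the limma test called 2. Over all genes in that line comparison, the corrected limma-voom called 60.2% and the limma test 51.5%. The other alternatives kept the number of chains called within 1.5 times. Leaving out each library gave 2 to 2 chains for 6419c5 against 2838c3 and 6 to 7 for each comparison of 6499c4, and leaving out each line gave 0 to 0 under G-1. Without the replicate block, 0 chains and 0 genes were called under G-1, with 25 genes at an unadjusted p under 0.05.

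Some small differences changed sign. For 6419c5 minus 2838c3, Itgb5 was 0.00 with read totals as the scale, 0.02 with the correction in limma and 0.01 with it in limma-voom, and leave-one-out ranges were -0.14 to 0.09 for Itgb5, -0.16 to 0.02 for Itga2, -0.15 to 0.17 for Itga5 and -0.17 to 0.08 for Itga1. For 6499c4 minus 2838c3, Itga3 was 0.08 with read totals, 0.00 with quantile scaling, 0.06 with the correction in limma and 0.04 with it in limma-voom, with leave-one-out ranges of -0.14 to 0.03 for Itga3 and -0.31 to 0.00 for Itgb6. For 6499c4 minus 6419c5 the ranges were -0.15 to 0.16 for Itgb6 (-0.05 without the vehicle library of 6419c5) and 0.00 to 0.11 for Itga3. Under G-1, Itga7 was -0.24 with a pseudocount of 0.1, Itgb5 0.00 with read totals, and Itgb4 -0.03 with the correction in limma and -0.04 with it in limma-voom. Ranges without 1 line were -0.01 to 0.22 for Itga7, -0.09 to 0.07 for Itgb5 and -0.03 to 0.03 for Itgb4. The cause was not tested.

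Over all genes, G-1 calls numbered 3 in the limma test, 1 with a pseudocount of 0.1, 0 with no filter (1152 at an unadjusted p under 0.05), 6 with a filter of 5 FPKM, 0 with no variance trend (937), 168 in limma-voom, 1 with the correction in limma, 32 with it in limma-voom and 0 to 11 without 1 line. Between 6419c5 and 2838c3, 5533 genes were called, 3430 without the vehicle library of 6419c5 and 3590 without its G-1 library. Between 6499c4 and 6419c5, 4836 were called, 3003 without the vehicle library of 6419c5 and 2612 without its G-1 library. With read totals as the scale the median of all genes was 0.115 for 6499c4 minus 2838c3, against -0.005 (3674 higher and 2404 lower, against 2864 and 3109), and 0.101 for 6499c4 minus 6419c5, against 0.006 (3096 and 2026, against 2291 and 2545). With the correction in limma-voom it was -0.118 for 6419c5 minus 2838c3, against 0.001 (2395 higher and 3748 lower, against 2817 and 2716). Depth limits Itgb8 and the other chains with few reads, which could not be compared.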
